A study of Homo sapiens with 6 samples.

Results

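Transcripts of 10 genes that restrain protein phosphatase 2A (PP2A) or control how it is put together were followed in RT-112 cells after silencing of PPP2R2A. The genes were BOD1, ENSA, ARPP19, MASTL, SET, ANP32A, PPME1, LCMT1, IGBP1 and TIPRL. Their members on the array were all probe sets whose single gene symbol in the platform table is one of these names, which gave 24 of 54675 probe sets, for 10 of the 19775 genes with such a probe set. A probe set is a group of short oligonucleotides read out as 1 signal. Between 1 and 5 probe sets stood for a gene, and BOD1, MASTL, LCMT1 and IGBP1 had 1 each.

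RT-112 is a human bladder cancer cell line. Every group received 50 nM siRNA with Lipofectamine RNAiMAX and the same dose again after 24 h, and RNA was taken 24 h later. The control group was given a scramble siRNA, and the other groups were given siPPP2R2A number 1 or number 2, called siRNA 1 and siRNA 2 here. Each group has 2 arrays, A and B, which the series describes as technical duplicates. All p-values and intervals therefore measure the spread between such duplicates and not between separate transfections.

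PP2A is assembled from a scaffold, a catalytic and a regulatory B subunit, and the B subunit chooses the substrates. PPP2R2A encodes a B subunit of the B55 family, whose holoenzymes undo phosphorylation by cyclin-dependent kinases as cells leave mitosis. On entry into mitosis the kinase MASTL (Greatwall) phosphorylates the small proteins ENSA and ARPP19, which then bind and block PP2A-B55. SET and ANP32A are inhibitors of the catalytic core, and BOD1 inhibits holoenzymes of the B56 family at kinetochores. LCMT1 adds a methyl group to the last residue of the catalytic subunit, which favours binding of some B subunits, and PPME1 removes it. IGBP1 (alpha4) and TIPRL bind catalytic subunits of PP2A and of its relatives PP4 and PP6 outside the holoenzyme.

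PPP2R2A on its brightest probe set was left at 24.7% of the scramble signal after siRNA 1 and 35.1% after siRNA 2. Of 11 epithelial and urothelial markers on the array, 11 were above the array median on all 6 arrays. Their summed signal was 143503 to 148607 on the scramble arrays, 142641 to 148038 after siRNA 1 and 122461 to 130219 after siRNA 2. At an unadjusted limma p under 0.05, 1 of the 11 was lower with siRNA 1 and 5 with siRNA 2, and 0 were called. Over all genes tested, 16.2% and 20.8% had such a p in either direction, and 0.393% and 0.597% were called. Of 12 markers of fibroblasts, endothelium and leukocytes, 4 were above the array median on all 6 (COL1A1, LUM, PECAM1 and CDH5). Another 5 were above it on none, among them the leukocyte gene PTPRC. The 12 summed to 6482 to 6686 on the scramble arrays, 7117 to 8002 after siRNA 1 and 6136 to 6168 after siRNA 2. The 3'/5' ratio of a control transcript grows as RNA is degraded or labelled incompletely. For ACTB it was 5.43 and 5.94 on the scramble arrays, 6.52 and 7.82 on the siRNA 1 arrays, and 7.47 and 12.4 on the siRNA 2 arrays. For GAPDH it was 1.00 and 1.00, 1.00 and 1.02, and 1.00 and 0.943 in the same order. The part of the markers and of these ratios in the results was not tested.

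BOD1 was the 1 gene of the 10 whose transcript rose at least 1.5-fold, and it did so about equally with either siRNA. Its probe set 225030_at, the only one of this gene, read 1953 and 2142 on the scramble arrays. With siRNA 1 it read 4423 and 4299, and with siRNA 2 it read 4193 and 4307. All 4 knockdown arrays lay above both scramble arrays, and the groups did not overlap. The mean signal went from 2048 ± 134 in the scramble group to 4361 ± 87.5 after siRNA 1 and 4250 ± 80.4 after siRNA 2 (SD, n = 2 each), which is 213% and 208% of the scramble level. On the scale log2(signal + 1) the changes were 1.09 (SE 0.09, limma adjusted p = 0.0454) and 1.05 (SE 0.09, adjusted p = 0.0461), and 1.07 for the mean of both siRNAs (adjusted p = 0.0359). In such bulk RNA, more transcript per cell and more cells that express the gene cannot be told apart.

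**Figure D1:**
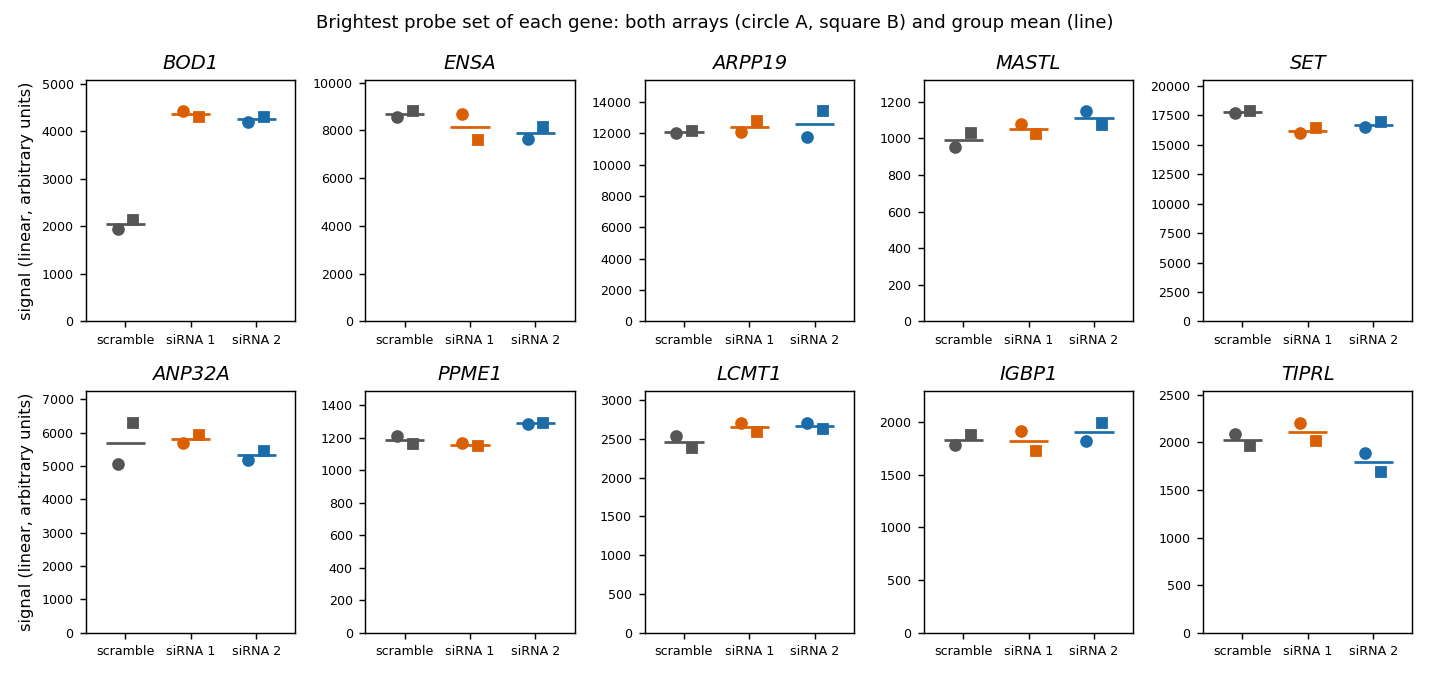
Signal of the brightest probe set of each of the 10 genes on every array, on a linear axis from 0 in arbitrary units, with circles for array A, squares for array B and a line for the group mean. BOD1 goes from 2048 to 4361 and 4250, while the knockdown means of the other 9 genes lie between 88.7% and 112% of their scramble means.

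A gene was called when its limma adjusted p, taken over 12735 tested genes, was under 0.05 and its change at least 1.5-fold. By that rule 1 of 10 members was called higher with siRNA 1 and the same 1 with siRNA 2, against 0.212% and 0.44% of all genes tested, while 0.157% were called in the same direction with both. No member was called lower. The members were chosen with earlier results of these data known. Their share beside that of all genes is thus a description and no test of the group. Over all genes, calls in either direction made up 0.393% with siRNA 1, 0.597% with siRNA 2 and 0.51% for the mean of the siRNAs (0.385% higher). Both comparisons use the same scramble arrays, so the equal size of the BOD1 change with the siRNAs is not a repeat measurement of its control level.

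When all 23975 probe sets were tested on their own, BOD1 was not called, with an adjusted p of 0.0833 with siRNA 1 and 0.0814 with siRNA 2 (limma). That fit called 0 of all probe sets with siRNA 1 and 1 with siRNA 2. Even the brightest probe set of the silenced PPP2R2A was not called in it (limma adjusted p = 0.0768 and 0.0814). With so few calls over all probe sets, the missing call says little of BOD1 in particular. Without any 1 of the 6 arrays its limma adjusted p was 0.124 to 0.234, but those fits called 0 of all 12735 genes (1461 to 2397 had an unadjusted p under 0.05 against scramble), so they say nothing of BOD1 in particular. In them a group of 1 array is assumed to vary like the others. After median centring of the arrays limma called 11 genes with siRNA 1 and 1 with siRNA 2, but not BOD1 (adjusted p = 0.0859 and 0.0749). Without probe set types that bind related transcripts, 11 genes were called with siRNA 1, and BOD1 was not. The BOD1 call held in 4 of 16 alternatives with each siRNA and so depended on the processing. The size of the BOD1 change under all alternatives was between 0.99 and 1.16 on the log2 scale. The relatives of BOD1 on the array were not called. BOD1L1 stood at log2 changes of 0.10 and 0.16 (adjusted p = 0.638 and 0.378), and BOD1L2, at 63.1 to 76.3 with scramble, was about as dim as the median probe set.

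By its pattern over the 6 arrays on the log2 scale, BOD1 was most like PDCD6, a calcium-binding protein (Pearson r = 0.997), the interferon-induced IFI44L (r = 0.997) and WSB1, a substrate receptor of a ubiquitin ligase (r = 0.995). PDCD6 read 2727 and 3032 on the scramble arrays, 5281 and 5467 after siRNA 1, and 5200 and 5185 after siRNA 2. In all, 190 of 12735 genes had an r over 0.95 with BOD1. These correlations rest on 6 arrays in 3 groups that share a low scramble level, and they serve as a description.

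The other 9 genes, among them the complete MASTL, ENSA and ARPP19 axis, were not called with either siRNA. Their log2 changes ran from -0.13 to 0.11 with siRNA 1 (lowest limma adjusted p = 0.461) and from -0.18 to 0.16 with siRNA 2 (lowest adjusted p = 0.386). At an unadjusted p under 0.05 none of the 9 was found, while 16.2% and 20.8% of all genes tested had such a p, and 18.5% for the mean of the siRNAs. On the brightest probe sets, all 95% intervals of these genes lay between -0.44 and 0.40, inside a 1.5-fold change in either direction (0.58 on the log2 scale). A change of 1.5-fold or more in these probe sets was therefore outside the interval, and smaller changes were not. This bound does not cover the dimmer probe sets. Of the 23 member probe sets tested on their own, that of BOD1 included, 18 had an interval inside 1.5-fold with siRNA 1 and 16 with siRNA 2. The median log2 change over the 10 genes was 0.04 with siRNA 1 and 0.06 with siRNA 2, against 0.01 and 0.02 over all genes tested.

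**Figure D2:**
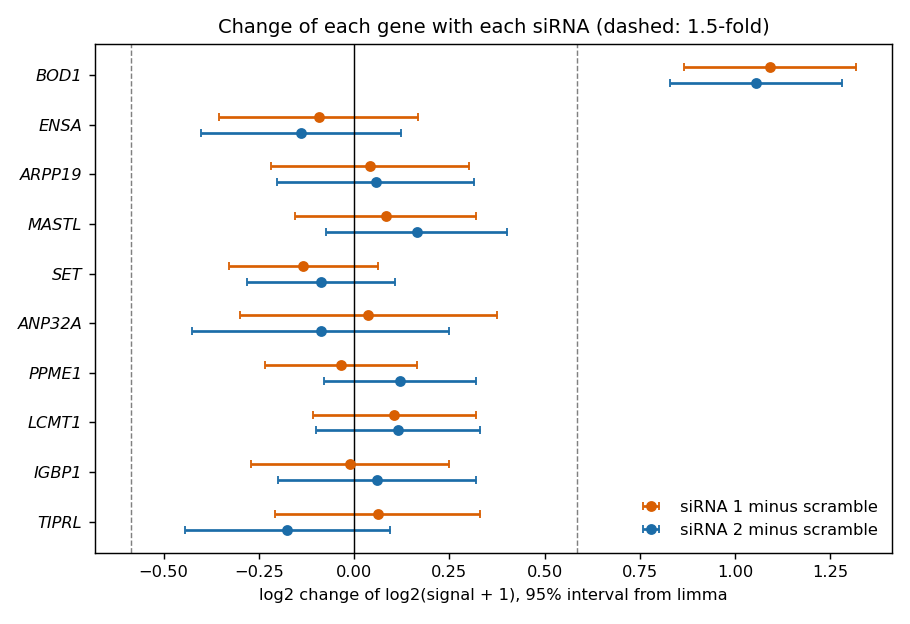
Log2 change of each gene with siRNA 1 (orange) and siRNA 2 (blue) against scramble, with the 95% interval from limma as a horizontal bar and 1.5-fold as dashed lines. Only BOD1 (1.09 and 1.05) lies beyond the dashed lines, and the intervals of the other 9 genes lie between them.

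In the mitotic axis, MASTL read 952 and 1031 on the scramble arrays, 1079 and 1021 after siRNA 1, and 1147 and 1075 after siRNA 2. The siRNA 1 arrays overlapped the scramble arrays, and both siRNA 2 arrays lay above them. The log2 changes were 0.08 (95% interval -0.15 to 0.32, limma adjusted p = 0.707) and 0.16 (-0.07 to 0.40, adjusted p = 0.386). MASTL was most like AGAP1, a regulator of ARF GTPases (r = 0.988), CAPN10-DT, a non-coding transcript (r = 0.985), and KMT2D, a histone methyltransferase (r = 0.985), over 6 arrays, with 34 genes at an r over 0.95.

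ENSA, one of the 2 substrates of MASTL named here, was read by 5 probe sets that did not share a direction. Its brightest, 202596_at, read 8555 and 8801 on the scramble arrays, 8686 and 7617 after siRNA 1, and 7647 and 8121 after siRNA 2. Only siRNA 2 lay below both scramble arrays, with log2 changes of -0.09 and -0.14 (limma adjusted p = 0.702 and 0.499). The dimmer 221486_at read 491 and 572 on the scramble arrays, 356 and 369 after siRNA 1, and 399 and 481 after siRNA 2, so that all 4 knockdown arrays were below both scramble arrays. It kept 68.2% and 82.8% of its scramble signal (log2 changes -0.55 and -0.27) but was not called when all probe sets were tested (limma adjusted p = 0.252 and 0.393). In the other direction 228852_at stood at 109% and 121% of scramble. The remaining pair, 228851_s_at and 221487_s_at, kept 92.2% to 99.3% of the scramble signal.

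ARPP19, the other substrate, read 12012 and 12129 on its brightest probe set in the scramble group, 12080 and 12768 after siRNA 1, and 11746 and 13413 after siRNA 2. The groups overlapped, with log2 changes of 0.04 (95% interval -0.22 to 0.30) and 0.06 (-0.20 to 0.32). Its other probe sets went apart with siRNA 2. Probe set 221482_s_at read 2148 and 2271 on the scramble arrays, 2180 and 2074 after siRNA 1, and 2340 and 2455 after siRNA 2, which lay above both scramble arrays (log2 0.12, limma adjusted p = 0.577). The dimmer 214553_s_at read 494 and 540 on the scramble arrays and 388 and 475 after siRNA 2, where it was at 83.5% of scramble, against 102% with siRNA 1. The difference between the siRNAs on it was not called (log2 0.29, limma adjusted p = 0.377).

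**Figure D3:**
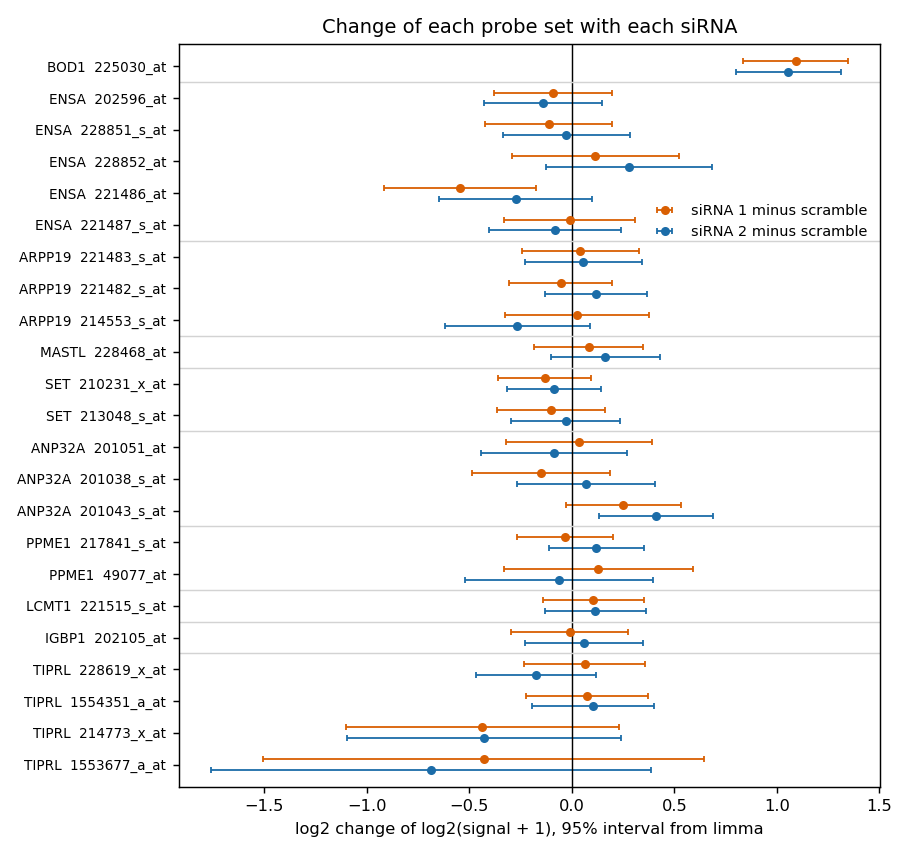
Log2 change of each of the 23 probe sets tested, grouped by gene, with siRNA 1 (orange) and siRNA 2 (blue) and 95% intervals from limma. Probe sets of ENSA range from -0.55 to 0.12 with siRNA 1, and those of TIPRL from -0.44 to 0.07, with the widest intervals on 1553677_a_at.

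Of the inhibitors of the catalytic core, SET read 17664 and 17827 on 210231_x_at in the scramble group, 15991 and 16374 after siRNA 1, and 16490 and 16910 after siRNA 2. All 4 knockdown arrays were below both scramble arrays, at 91.2% and 94.1% of the scramble mean. The test did not call this difference (log2 changes -0.13 and -0.09, limma adjusted p = 0.461 and 0.566). Its second probe set, 213048_s_at, was at 93.0% and 97.7%. Another 5 probe sets name SET together with SETSIP, a near-identical copy of SET, and 1 of them also with SETP4, so their transcripts cannot be told apart. With siRNA 1 all 7 probe sets that name SET were below both scramble arrays, at 85.2% to 94.2% of the scramble mean. With siRNA 2 they ranged from 90.8% to 106%. These probe sets share transcripts and are not independent readings, and 46.7% of all probe sets tested had siRNA 1 arrays that did not overlap the scramble arrays. None of the 5 was called (lowest limma adjusted p = 0.423 and lowest unadjusted p = 0.0793 with siRNA 1).

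**Figure D4:**
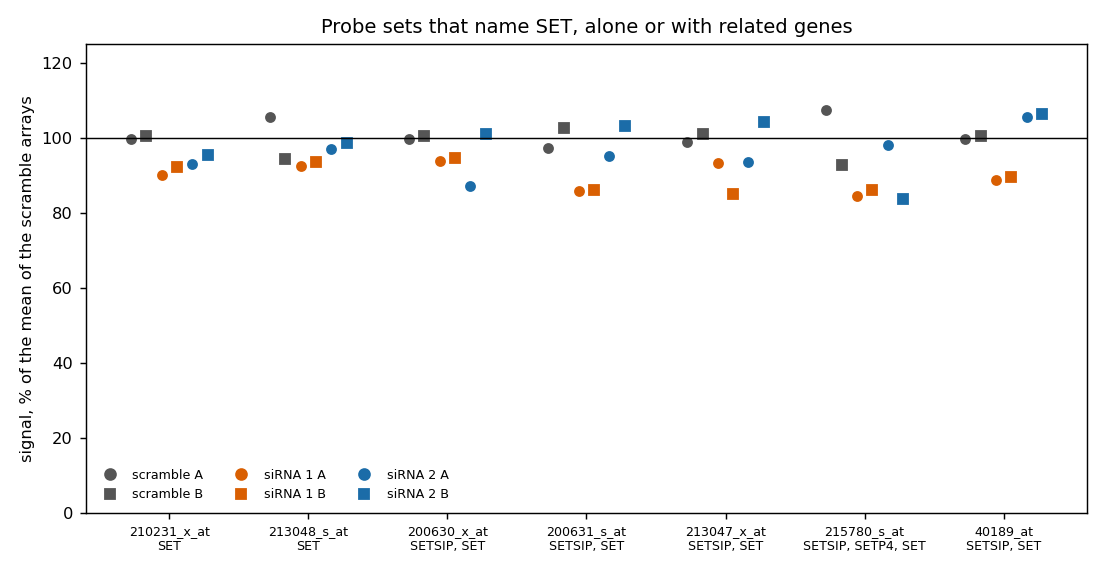
Signal of the 7 probe sets that name SET, alone or with SETSIP and SETP4, on each array as a percentage of the mean of the scramble arrays. Orange points (siRNA 1) lie below both grey points (scramble) on every probe set, while blue points (siRNA 2) do so on 210231_x_at only.

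ANP32A, the other inhibitor of the core, did not show 1 direction. On its brightest probe set, 201051_at, the scramble arrays themselves read 5071 and 6301, and all 4 knockdown arrays, at 5187 to 5917, lay between them. Probe set 201043_s_at gave 1422 and 1450 on the scramble arrays, 1663 and 1755 after siRNA 1, and 2031 and 1795 after siRNA 2, all 4 above both scramble arrays. That probe set stood at 119% and 133% of scramble, with log2 changes of 0.25 and 0.41 (limma adjusted p = 0.404 and 0.170), and was not called. With an intensity trend in the limma prior the siRNA 2 value had an adjusted p = 0.0319 but stayed under the 1.5-fold limit. On the third, 201038_s_at, the levels were 90.5% and 105%. By their suffixes, 201038_s_at and 201043_s_at are among the 15 of 24 member probe sets of types that can also bind related transcripts.

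The enzymes that set the methylation of the catalytic subunit kept levels near those of the scramble group. LCMT1, the methyltransferase, read 2540 and 2387 on the scramble arrays, 2706 and 2594 after siRNA 1, and 2709 and 2625 after siRNA 2. All 4 knockdown arrays were above both scramble arrays by small amounts, with log2 changes of 0.11 (95% interval -0.11 to 0.32) and 0.11 (-0.10 to 0.33), and limma did not call them (adjusted p = 0.590 and 0.495). PPME1, the methylesterase, read 1212 and 1158 on the scramble arrays, 1166 and 1147 after siRNA 1, and 1282 and 1291 after siRNA 2. Only siRNA 2 was above both scramble arrays (log2 changes -0.03 and 0.12, adjusted p = 0.861 and 0.445). A second PPME1 probe set, 49077_at, was at 110% and 96.0% of scramble, the opposite order of the siRNAs. The third, 243443_at, read 3.83 to 35.2 and was the 1 member probe set that did not pass the filter on dim signals.

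Of the proteins that hold free catalytic subunits, IGBP1 read 1784 and 1872 on the scramble arrays, 1909 and 1724 after siRNA 1, and 1821 and 1992 after siRNA 2. The groups overlapped, at 99.4% and 104% of scramble (log2 changes -0.01 and 0.06, limma adjusted p = 0.972 and 0.781).

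TIPRL was read by 4 probe sets, of which the dimmer pair had lower means than scramble after either siRNA and the brighter pair only 228619_x_at after siRNA 2. The brightest, 228619_x_at, read 2085 and 1959 on the scramble arrays, 2208 and 2016 after siRNA 1, and 1891 and 1694 after siRNA 2. On it TIPRL had the largest difference between the siRNAs among the 10 genes (log2 0.24, 95% interval -0.03 to 0.51), which limma did not call (adjusted p = 0.314). The next, 1554351_a_at, overlapped between the groups, at 105% and 108% of scramble. On 214773_x_at all 4 knockdown arrays were below both scramble arrays, with 1208 and 1169 on scramble, 680 and 1135 on siRNA 1, and 866 and 902 on siRNA 2 arrays.

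On 1553677_a_at TIPRL read 1184 and 1068 on the scramble arrays, 553 and 1261 after siRNA 1, and 624 and 782 after siRNA 2. The siRNA 1 duplicates thus differed 2.28-fold, the widest gap among the 23 member probe sets tested, against a median of 1.14-fold. With siRNA 2 this probe set kept 62.4% of its scramble signal (log2 change -0.69, 95% interval -1.76 to 0.39), and limma did not call it (adjusted p = 0.456). Its siRNA 1 value of -0.43 turned to 0.17 without array A of that group. The same array gave the low reading on 214773_x_at, where the siRNA 1 value moved from -0.44 to -0.07 without it.

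**Figure D5:**
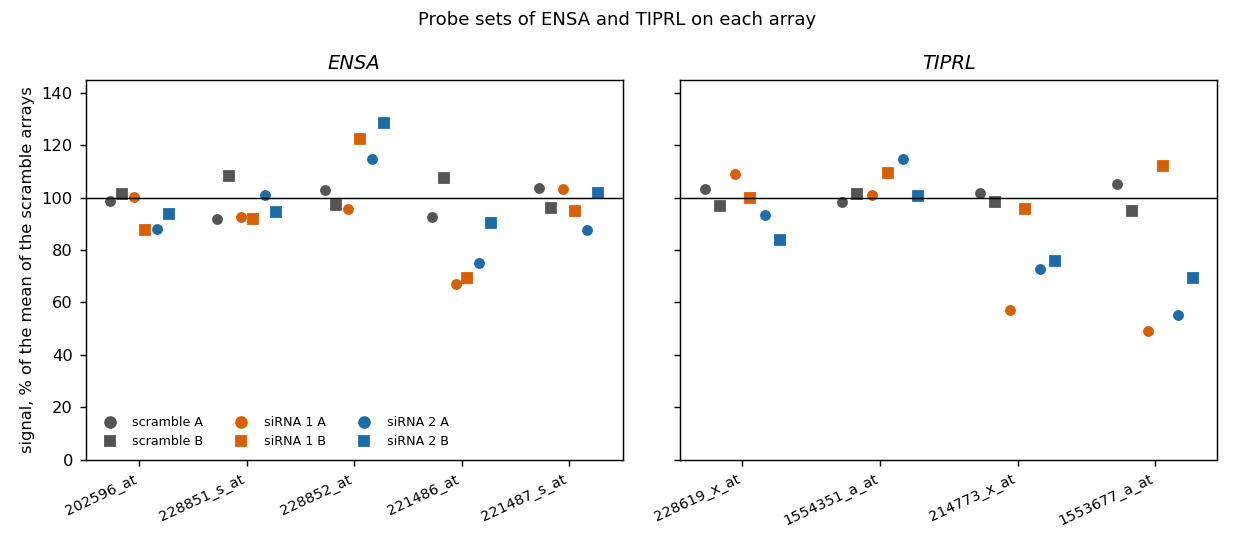
Signal of each probe set of ENSA (left) and TIPRL (right) on each array, as a percentage of the mean of the scramble arrays. On 221486_at of ENSA all 4 knockdown arrays lie below both scramble arrays, and on 1553677_a_at of TIPRL the siRNA 1 arrays lie on both sides of the scramble arrays.

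Over all tested member probe sets, 11 of 23 were above 0 and 12 below 0 with each siRNA, and limma called 0 of 23 with either. Over all 23975 probe sets it called 0% with siRNA 1, 0.00417% with siRNA 2 and 0.0125% for the mean of the siRNAs. With so few calls over the whole array, a missing call in this fit says little of any single probe set. At an unadjusted p under 0.05 the members counted 2 with siRNA 1 (BOD1 and 221486_at of ENSA) and 2 with siRNA 2 (BOD1 and 201043_s_at of ANP32A), and the share over all probe sets was 13.7% and 18%. For the mean of the siRNAs the count was 3, against 15.7%. Siding apart from both scramble arrays was common over the whole array. It was seen for 3 of 10 genes with siRNA 1 and 7 of 10 with siRNA 2, against 49.4% and 52.4% of all genes, and for 7 and 15 of 23 probe sets, against 46.7% and 50.6%. Of the 23, 6 (26.1%) had all 4 knockdown arrays on 1 side of both scramble arrays, against 23.5% of all probe sets, and of the 10 genes 3 did (BOD1, SET and LCMT1), against 25.3% of all genes. Of the 6 genes with several tested probe sets, only SET had all of them on the same side of 0 with siRNA 1, and with siRNA 2.

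The contrast between the siRNAs asks whether members respond to 1 of them. Limma called 0 of 10 genes and 0 of 23 probe sets in it, against 0.212% of all genes and 0% of all probe sets, and 0 of either had an unadjusted p under 0.05, against 18.7% and 16.2%. For BOD1 the difference was 0.04 on the log2 scale (95% interval -0.19 to 0.26). On the brightest probe sets, the intervals of all 10 genes lay inside a 1.5-fold difference. Of the 23 probe sets tested on their own, 18 had such an interval.

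Other genes around PP2A were taken from lists drawn up with earlier results of these data known. Of 13 other PP2A regulators tested, limma called 0 with either siRNA, and at an unadjusted p under 0.05 it found 2 lower with siRNA 1 and 0 with siRNA 2, against 16.2% and 20.8% of all genes in either direction. CIP2A, an inhibitor of PP2A that stabilizes MYC, read 959 and 851 on the scramble arrays, 679 and 712 after siRNA 1, and 947 and 863 after siRNA 2 (log2 changes -0.38 and 0.00, limma adjusted p = 0.212 and 0.997). IER5, a stress-induced adaptor of PP2A, stood at -0.28 and -0.01 (adjusted p = 0.246 and 0.978). SETBP1, which binds and protects SET, stood at 0.49 with either siRNA (adjusted p = 0.354 and 0.285).

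Among 19 PP2A subunits, PPP2R2A was called lower with both siRNAs and PPP2R1B, a scaffold isoform, higher with siRNA 2 (log2 change 1.25, limma adjusted p = 0.0461). PPP2R1B read 834 and 843 on the scramble arrays, 1623 and 1336 after siRNA 1, and 2034 and 1960 after siRNA 2. With siRNA 1 its log2 change of 0.81 was not called (limma adjusted p = 0.0807). It was called with a filter on all 6 arrays (limma adjusted p = 0.0298) and an intensity trend (0.00183), but under no other alternative. The siRNA 2 call of PPP2R1B held under these, quantile normalization and a pseudocount of 16, and was lost in all other alternatives. The difference between the siRNAs on PPP2R1B was not called (log2 -0.44, limma adjusted p = 0.172). PPP2R1A, the other scaffold isoform, stood at 0.37 and 0.67 (adjusted p = 0.418 and 0.149) and the catalytic PPP2CA at 0.09 and 0.31 (adjusted p = 0.703 and 0.192). PPP2R3A, a B'' subunit, was at 0.02 and -0.32 (adjusted p = 0.931 and 0.129).

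Of 12 subunits of PP4 and PP6, the phosphatases that share IGBP1 and TIPRL with PP2A, limma called 0 with either siRNA, with 1 higher and 1 lower at an unadjusted p under 0.05 with siRNA 1 and 1 higher with siRNA 2, against 16.2% and 20.8% of all genes. PPP4C, the catalytic subunit of PP4, read 1652 and 1784 on the scramble arrays, 2039 and 2178 after siRNA 1, and 2038 and 1998 after siRNA 2 (log2 changes 0.30 and 0.23, limma adjusted p = 0.229 and 0.233). The PP6 regulatory subunit PPP6R2 was at -0.27 and -0.12, and the PP4 subunit PPP4R1 at 0.19 and 0.18.

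Of 18 mitotic kinases and other mitotic genes around B55, limma called 0 with either siRNA, with 1 lower at an unadjusted p under 0.05 with each, against 16.2% and 20.8% of all genes. WEE1, the kinase that holds CDK1 inactive until mitosis, read 4590 and 4633 on the scramble arrays, 4782 and 4208 after siRNA 1, and 2706 and 2411 after siRNA 2. Its siRNA 2 arrays lay below the other 4 arrays (log2 change -0.85, limma adjusted p = 0.0567), whereas siRNA 1 was at -0.04 (adjusted p = 0.891). With siRNA 2 limma called WEE1 lower under a pseudocount of 16 (adjusted p = 0.0486). It did so too under a filter on all 6 arrays (0.0188) and an intensity trend (0.000459), but under no other alternative. The difference between the siRNAs on WEE1 was not called (log2 0.81, limma adjusted p = 0.0794), except under that filter (0.0283) and that trend (0.000648). AURKA, a kinase of spindle assembly, was at -0.23 and -0.20, and CDC25C, a phosphatase that activates CDK1, at -0.19 and -0.26. The median over the 18 genes was 0.01 with siRNA 1 and -0.09 with siRNA 2, against 0.01 and 0.02 over all genes.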

How the data were processed

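Total RNA of 6 samples was labelled with biotin by the MessageAmp Premier protocol and read on oligonucleotide arrays, per the labels' protocols. For each probe set the authors deposited a linear intensity, made with Affymetrix Expression Console, per the submitters' processing notes. Its version and algorithm, and a genome build, are not stated in these sources. The mean signal after trimming 2% from each end was 500.067 to 500.07 on every array, and array medians were 69.3 to 76.2. The 2 arrays per group limit the precision. Duplicates correlated at 0.979 to 0.980 and arrays of different groups at 0.970 to 0.978.

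Each signal plus 1 was taken to log2. Symbols were read from the platform table and updated by Entrez identifier through a RefSeq table of GRCh38.p14 (41043 of 41097 probe sets with a single symbol matched). The brightest probe set (mean log2 over all arrays) stood for a gene. A gene or probe set was tested when above the array median on at least 2 arrays, which left 12735 of 19775 genes and 23975 probe sets, with 10 of 10 member genes and 23 of 24 member probe sets. Groups were compared with limma 3.58.1 in R 4.3.3 (lmFit with a coefficient per group, eBayes, Benjamini-Hochberg over all features), with 3 residual and 1.72 prior degrees of freedom in the gene fit. Figures used matplotlib 3.10.9.

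The fit was tested on simulated data. The members and the gene lists were chosen with earlier results of these data known. Named besides the members were PPP2R2A, list genes called against scramble, up to 3 more per list with the lowest p for the mean of the siRNAs, and the 3 genes most like BOD1, which had the largest mean change, and MASTL. BOD1L1, BOD1L2, SETSIP and SETP4 were named after their values were seen. Alternatives were quantile normalization, median centring, a pseudocount of 16, other filters, a replicate block, an intensity trend, the mean of probe sets, specific probe set types, leaving out each array, and fits of only the groups compared.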

Additional observations from a re-analysis of the deposited data

Results flagged for a closer look

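Probe set 40189_at, which names SETSIP together with SET and so lies outside the single-symbol members, read above both scramble arrays with siRNA 2. It read 16400 and 16511 on the scramble arrays, 17372 and 17516 after siRNA 2, and 14611 and 14716 after siRNA 1. The siRNA 2 difference was 0.0842 on the log2 scale (95% interval -0.14 to 0.31, limma adjusted p = 0.660). Its cause was not tested.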

How the results depend on the processing

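No other member than BOD1 was called in the gene fit under any of the alternatives run. BOD1 was called in 4 of 16 alternatives with siRNA 1 and with siRNA 2 and in 5 of 15 for the mean of the siRNAs, and its log2 change stayed between 0.99 and 1.16. The count of called genes went from 1 to 0 with median centring, no filter, the mean of probe sets and only the groups compared (the mean of the siRNAs has no value there), and, for each siRNA but not their mean, without probe set types that bind related transcripts. It fell likewise without each array in turn, in fits that called no gene at all against scramble. With the replicate letter as a replicate block it was also 0. BOD1 then had an adjusted p = 0.158 and 0.129. The letters did not pair the arrays (r of the A minus B differences between groups -0.03 to 0.04). In the probe set fit the count went from 0 to 1, which was BOD1, for each siRNA and their mean with an intensity trend and with a filter on all 6 arrays, where 183 to 802 of all probe sets were called. It stayed 0 when probe sets with several symbols were added after seeing the data. Over all genes with siRNA 1 the calls numbered 50, against 299 with an intensity trend, 244 with a filter on all 6 arrays, 33 after quantile normalization, 11 after median centring and 11 without probe set types that bind related transcripts. They numbered 0 with a replicate block (1921 at an unadjusted p under 0.05), no filter (2065), the mean of probe sets (1766), only the groups compared (1925) and without each array in turn (1461 to 1925). With siRNA 2 they numbered 76, against 472, 399, 71, 1 and 0 (1989 at an unadjusted p under 0.05) in the same order, and 162 with a pseudocount of 16. For the mean of the siRNAs 65 became 0 to 278, and for siRNA 1 against siRNA 2, 27 became 0 to 362. Of 1911 member values recomputed, 1871 kept their side of the call and 0 called values changed sign; 79 uncalled ones did. The causes were not tested. Signal near or below the array median limits BOD1L2 and 243443_at of PPME1.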
